A study of Mus musculus with 4 samples.

Results

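The genes described here are the mouse H2 histocompatibility genes and their partners, 41 of the 30828 genes in the deposited tables. They were taken by symbol alone. Those are the 35 symbols that begin with H2- together with B2m, Tap1, Tap2, Tapbp, Cd74 and Ciita. Of the 41 members, 23 reached 50 unique molecular identifiers (UMIs, each standing for 1 captured RNA molecule) over both libraries in at least 1 of the 5 cell classes compared. Another 10 members were counted below that minimum, with 1 to 53 UMIs over all 5 classes (H2-DMb2, H2-Eb2, H2-M2, H2-M10.4, H2-M10.6, H2-Oa, H2-Ob, H2-Q1, H2-T3 and H2-T24). The last 8 members had no UMI in these classes (H2-M1, H2-M9, H2-M10.1, H2-M10.2, H2-M10.3, H2-M10.5, H2-M11 and H2-T9).

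Testis cells of 8-day-old mice that carried CD9 and THY1 on their surface, a sort meant to enrich spermatogonia, were measured by droplet 3′ RNA sequencing. The control mice, labelled wild-type, carried Cnot3 alleles with target sites for Cre (Cnot3 flox/flox) and no Cre. The Cnot3-cKO mice carried the same alleles together with Ddx4-creER, a Cre made from the germ cell gene Ddx4 that acts only in the presence of 4-hydroxytamoxifen. Both genotypes received 4-hydroxytamoxifen from postnatal day 1, and the labels give last days of injection of 1 and 2 for the control samples and of 3 and 4 for the Cnot3-cKO samples. Those labelled last days count up over the samples in their listed order. The methods describe a common schedule for neonatal mice instead, with daily injections on days 1 to 3. Whether dosing differed between the libraries could therefore not be settled here. Since Ddx4 is a germ cell gene, the Cre of this model was directed at germ cells, and the Sertoli, stromal, macrophage and endothelial cells were those of mice whose germ cells were targeted. Both labelled samples of each genotype are merged in 1 matrix, so the comparison is between 1 control library and 1 Cnot3-cKO library, without replicates. All intervals given are 95% intervals that cover counting error only, no test was possible, and genotype and library cannot be told apart.

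The major histocompatibility complex, named H2 in the mouse, encodes the surface proteins that show peptides to T cells. Class I molecules pair a heavy chain with beta-2 microglobulin (B2m) and present peptides made inside the cell. Tap1 and Tap2 form the pump that brings those peptides into the endoplasmic reticulum, and tapasin (Tapbp) holds empty class I molecules there for loading. H2-K1 and H2-D1 are the classical heavy chains, while the Q, T and M genes encode nonclassical ones. Class II molecules (H2-Aa, H2-Ab1, H2-Eb1) present peptides from endosomes, mostly on macrophages, dendritic cells and B cells, with the help of the invariant chain Cd74 and the exchange factor H2-DM, under control of the transactivator Ciita. H2-Ke6 carries an H2 symbol for its place in the complex and encodes a steroid dehydrogenase. Germ cells and the seminiferous tubule are known as sites of low class I display.

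All 35 H2- genes lie on chromosome 17 between 33996017 and 37483552 (GRCm38), a stretch of 3.49 Mb. H2-K1 is at chr17:33996017-34000347 on the minus strand, at one edge, H2-D1 at chr17:35262730-35267499 and H2-Q7 at chr17:35439155-35443773, both on the plus strand. B2m lies outside the complex, at chr2:122147686-122153083. RefSeq promoters of GRCm38.p6 were found for 34 of the 41 members. The letters GGGATTCCC, an NF-kB-type element known in class I genes as part of enhancer A, stood on either strand of the 300 bases around the start site in 4 of those 34 members (H2-K1, H2-D1, H2-Q6 and H2-Q7) and in 0.414% of all 27025 genes with a promoter. GAANNGAAA, an interferon response type of element, stood in 8 of the 34 members and in 8.68% of all genes. The windows that hold both are shown because they include H2-K1, H2-D1 and H2-Q7, heavy chains described below, and H2-Q4 and H2-Q10 are shown for comparison. B2m, H2-Q4 and H2-T22, each at least 1.5-fold lower in a class below, do not hold GGGATTCCC in this window, and nothing is read from a match or its absence. Capitals mark matches to either motif, read on the strand of the gene, on which the interferon element stands in reverse.

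H2-K1, chr17:34000400-34000461, minus strand: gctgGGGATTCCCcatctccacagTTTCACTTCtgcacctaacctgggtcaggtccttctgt
H2-D1, chr17:35262920-35262981, plus strand: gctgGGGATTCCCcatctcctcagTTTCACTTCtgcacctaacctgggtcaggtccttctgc
H2-Q6, chr17:35424674-35424735, plus strand: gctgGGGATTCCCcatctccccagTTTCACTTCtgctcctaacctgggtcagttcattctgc
H2-Q7, chr17:35439019-35439080, plus strand: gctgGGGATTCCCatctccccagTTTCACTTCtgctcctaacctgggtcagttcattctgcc
H2-Q4, chr17:35379441-35379502, plus strand: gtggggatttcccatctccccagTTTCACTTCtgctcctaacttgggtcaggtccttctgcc
H2-Q10, chr17:35469911-35469972, plus strand: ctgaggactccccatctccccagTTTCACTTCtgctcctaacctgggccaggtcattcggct

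H2-Q4 and H2-Q10 lacked the exact letters GGGATTCCC. A match is a description of letters and not a measured site. CCAAT stood in 31 of the 34 members with a promoter and in 41.1% of all genes, and TGACG in 14 of the 34 and in 23.05% of all genes, both on either strand. Because H2 genes resemble each other, the last 500 bases of each member's transcripts were also compared with the other genes of the complex. In 33 of 41 members no stretch of 100 bases there was shared exactly with another gene, among them H2-K1, H2-D1, B2m, H2-Aa, H2-Ab1 and H2-Eb1. Values of H2-Q6 (22.1% of its stretches shared, mostly with H2-Q7), H2-T22 (21.1%, with H2-T10), H2-DMb1 (10.5%, with H2-DMb2) and H2-Ke6 (42.5%, with Gm20427) are uncertain to that extent, and H2-Q7 shared 2.90% with H2-Q5.

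The control library held 181550221 UMIs and the Cnot3-cKO library 168770743. From barcodes called anew, 5615 and 6034 cells passed the filters stated by the study, with medians of 14183 and 13215 UMIs per cell. These are more cells than the study reported for either genotype, so the sets differ. Between the libraries, 18 barcodes were called in both, against 11.5 if the barcodes had been drawn apart. Cells were clustered without any member and named from marker lists. The germ-like class held 241 control and 71 Cnot3-cKO cells, the Sertoli-like class 1609 and 1963, the stromal class (peritubular myoid and interstitial stroma) 2927 and 3135, the macrophage-like cluster 50 and 61, and the endothelial-like cluster 33 and 37. Cnot3, the targeted gene, was at 69.4 UMIs per 1000000 UMIs of the class (CPM) in control germ cells and 38.9 in Cnot3-cKO germ cells, a log2 ratio of -0.83 [-1.25, -0.44]. In Sertoli cells it was at 62.2 and 65.6 CPM and in stromal cells at 45.9 and 44.4 CPM, so the lower Cnot3 level was seen in germ cells.

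Class I levels ordered the classes the same way for the classical heavy chains. In the control library H2-K1 was at 20.5 CPM in germ cells, 28.9 in stromal cells, 71.0 in Sertoli cells, 1042 in endothelial cells and 1650 in macrophage-like cells. H2-D1 ran from 7.90 CPM in germ cells over 31.8 in stromal and 79.6 in Sertoli cells to 1301 in endothelial and 2238 in macrophage-like cells. No neighbouring classes in these orders had overlapping counting intervals. B2m followed a different order in the middle, with 24.0 CPM in germ cells, 140 in Sertoli cells, 184 in stromal cells, 882 in endothelial cells and 2002 in macrophage-like cells. In barcodes of at most 100 UMIs, which hold free RNA, H2-K1 stood at 43.9 CPM in the control library and 39.8 in Cnot3-cKO, with H2-D1 at 45.4 and 33.2, and B2m at 97.3 and 96.3.

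**Figure D1:**
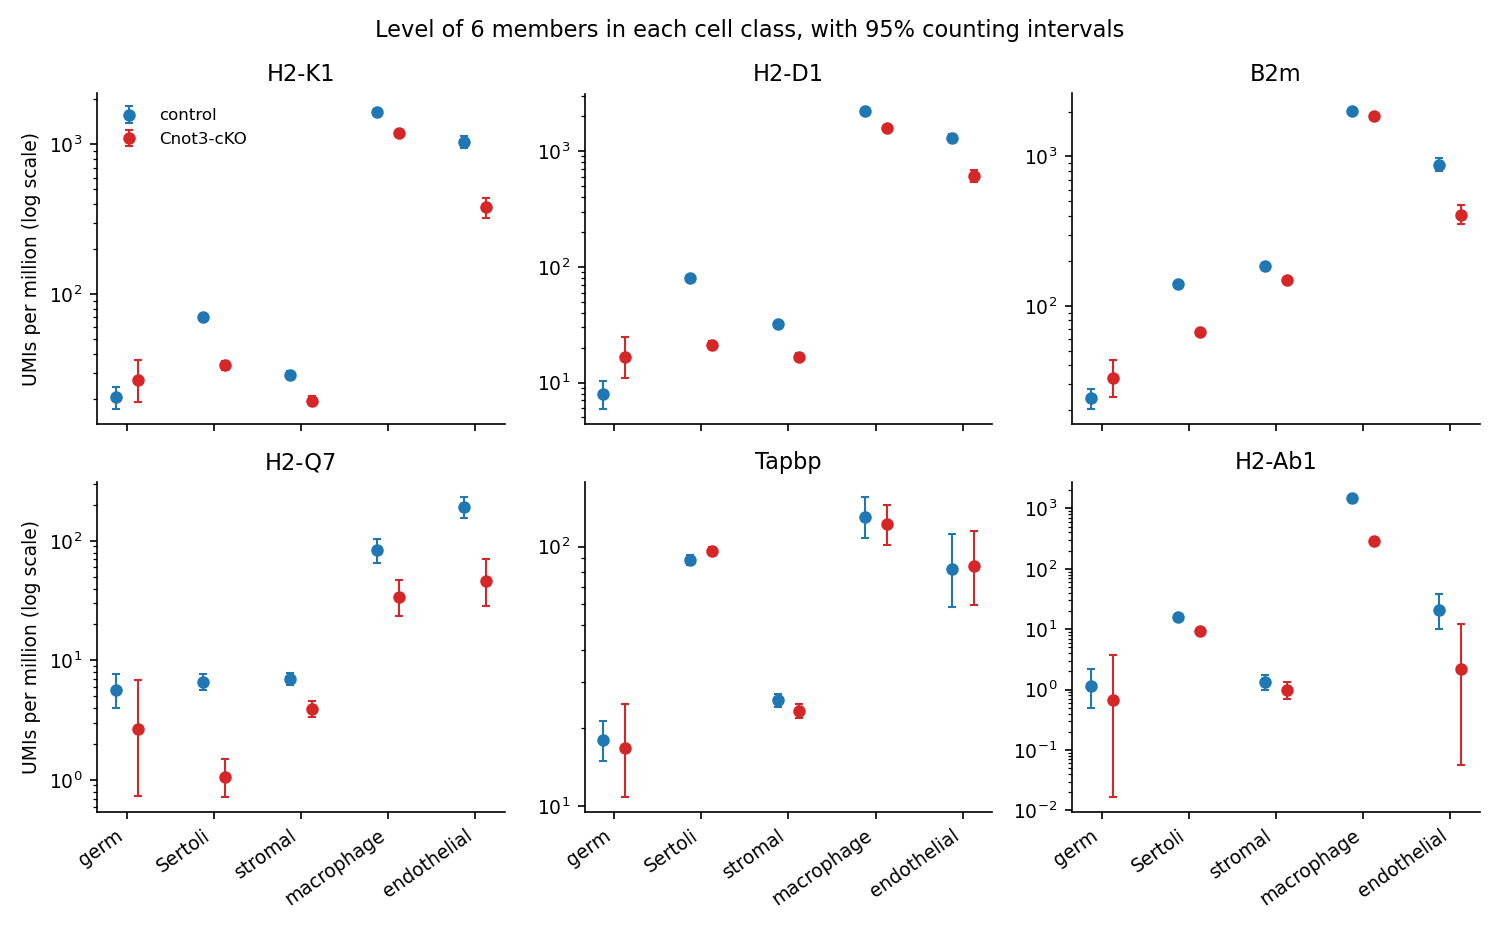
CPM, on a log scale, of 6 members in the 5 cell classes of the control library and the Cnot3-cKO library, with bars for 95% counting intervals. In the control library H2-K1, H2-D1 and B2m stand lowest in germ cells and highest in macrophage-like cells, in Cnot3-cKO H2-K1 stands at 26.9 in germ and 19.4 in stromal cells, and in Sertoli cells H2-D1 stands at 79.6 in control cells and 21.1 in Cnot3-cKO while Tapbp stands at 88.8 and 95.9.

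In Sertoli cells, the somatic cells that surround the germ cells, class I heavy chains and B2m were lower in the Cnot3-cKO library. H2-D1 was at 79.6 CPM [76.2, 83.1] in control cells and 21.1 [19.5, 22.8] in Cnot3-cKO, a 3.78-fold lower level. H2-K1 went from 71.0 [67.8, 74.3] to 33.4 [31.4, 35.6] and B2m from 140 [136, 145] to 66.3 [63.5, 69.3], log2 ratios of -1.09 and -1.08. H2-Q7, a nonclassical heavy chain known as Qa-2, had the lowest ratio, with 175 UMIs in control cells and 32 in Cnot3-cKO, or 6.66 and 1.06 CPM (log2 ratio -2.65 [-3.24, -2.10]). The other Q gene past 1.5-fold, H2-Q4, was at 6.09 and 3.95 CPM.

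Before any subtraction of free RNA, other parts of the class I set were close between the libraries in the same Sertoli cells. Tapbp, the loading chaperone, was at 88.8 and 95.9 CPM, a log2 ratio of 0.11 [0.03, 0.19]. The peptide pump genes were at 5.33 and 4.95 CPM (Tap1) and at 3.65 and 4.25 CPM (Tap2), with intervals of the ratio that held 0. H2-T22 was at 19.4 and 19.5 CPM, H2-T23, which encodes Qa-1, at 4.53 and 4.52, and H2-M3, which presents formylated peptides, at 8.90 and 8.74. H2-T23 lay below its level in barcodes of at most 100 UMIs, 13.5 and 17.8 CPM. Tap1 did too, with 6.67 and 6.34 CPM in those barcodes. H2-T22 (16.1 and 19.8 CPM there) and H2-M3 (7.54 and 9.10) lay near theirs, and Tap2 stood at 5.94 and 4.27 there. Subtracting free RNA left 0 UMIs of H2-T23 in Sertoli cells of either library. Tap2 was then at 2.11 and 4.23 CPM, with an interval of the log2 ratio from 0.42 to 1.62. Tap1 (4.39 and 4.31 CPM), H2-T22 (21.3 and 19.2) and H2-M3 (9.71 and 8.54) then had intervals that held 0. Without subtraction, H2-Q10, which encodes a secreted class I molecule, was at 42.0 CPM [39.5, 44.5] in control cells and 51.3 [48.8, 53.9] in Cnot3-cKO. In stromal cells it was at 0.711 and 0.793 CPM. H2-Ke6 was at 25.9 and 26.6 CPM.

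Of the 20 members with at least 50 UMIs in Sertoli cells, 10 were at least 1.5-fold lower in Cnot3-cKO (B2m, H2-K1, H2-D1, H2-Q4, H2-Q7, H2-Aa, H2-Ab1, H2-Eb1, H2-DMb1 and Cd74) and 0 were at least 1.5-fold higher. Over all 12712 genes with as many UMIs in Sertoli cells, 1.59% were lower and 1.5% higher by that measure. The median log2 ratio was -0.46 over the 20 members and 0.03 over all genes, of which 90% lay between -0.35 and 0.36. Red blood cell markers, which differed between the libraries, stood at 0.609 and 307 CPM in Sertoli cells and at 196 and 1.63 CPM in stromal cells, and their part in these values was not tested. With no replicates, how far 2 libraries of the same genotype would differ is not known.

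The lower class I level was present in every Sertoli cluster. H2-D1 had log2 ratios of -1.91 in the largest cluster, of 1056 and 1363 cells, -1.76 in the cycling cluster led by Ube2c and Top2a, -1.71 in the cluster with some stromal genes and -2.60 in the smallest. H2-K1 ratios ran from -1.58 to -0.89 over the same 4 clusters and B2m ratios from -1.71 to -0.55, while Tapbp stayed between -0.05 and 0.14. After each cell was thinned to 7500 UMIs, a UMI of H2-D1 was found in 34.2% of control Sertoli cells [31.9, 36.6] and in 14.1% of Cnot3-cKO Sertoli cells [12.6, 15.7]. For B2m these shares were 56.9% and 36.0%. Germ cells, the class with the lowest control level, gave 5.81% and 4.23% for H2-D1, from median depths of 31950 and 20265 UMIs before thinning, where Sertoli cells had 14324 and 13628. Unthinned, H2-D1 was found in 50.2% and 23.3% of Sertoli cells. Among Sertoli cells with no UMI of any macrophage marker, the summed H2-K1 and H2-D1 level was 149 CPM in control cells and 53.7 in Cnot3-cKO (log2 ratio -1.47) beside -1.47 over all Sertoli cells.

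**Figure D2:**
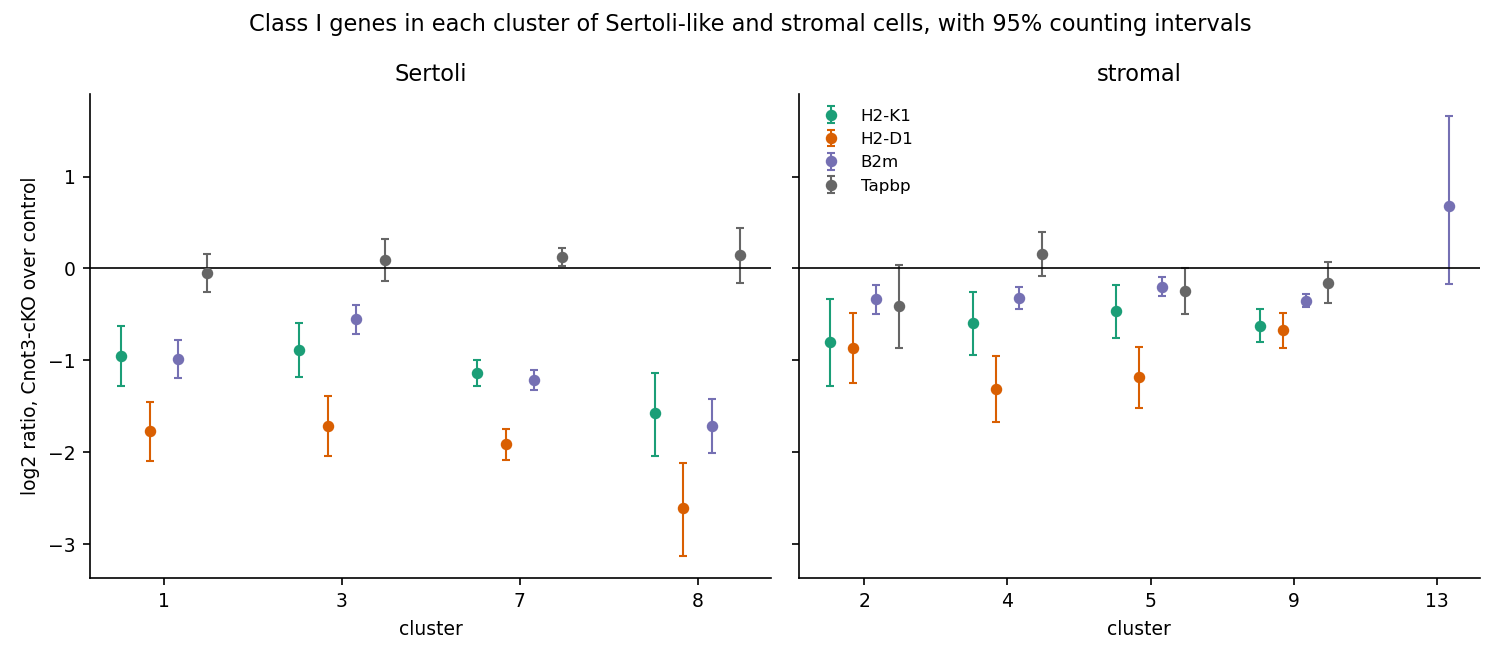
log2 ratio of Cnot3-cKO over control for H2-K1, H2-D1, B2m and Tapbp in each cluster of Sertoli-like and stromal cells, with bars for 95% counting intervals and genes under 50 UMIs left out. In Sertoli clusters 1, 3, 7 and 8 H2-D1 lies between -2.60 and -1.71 while Tapbp lies near 0, and in stromal cluster 13, which has 8 control cells, only B2m reached the minimum.

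**Figure D3:**
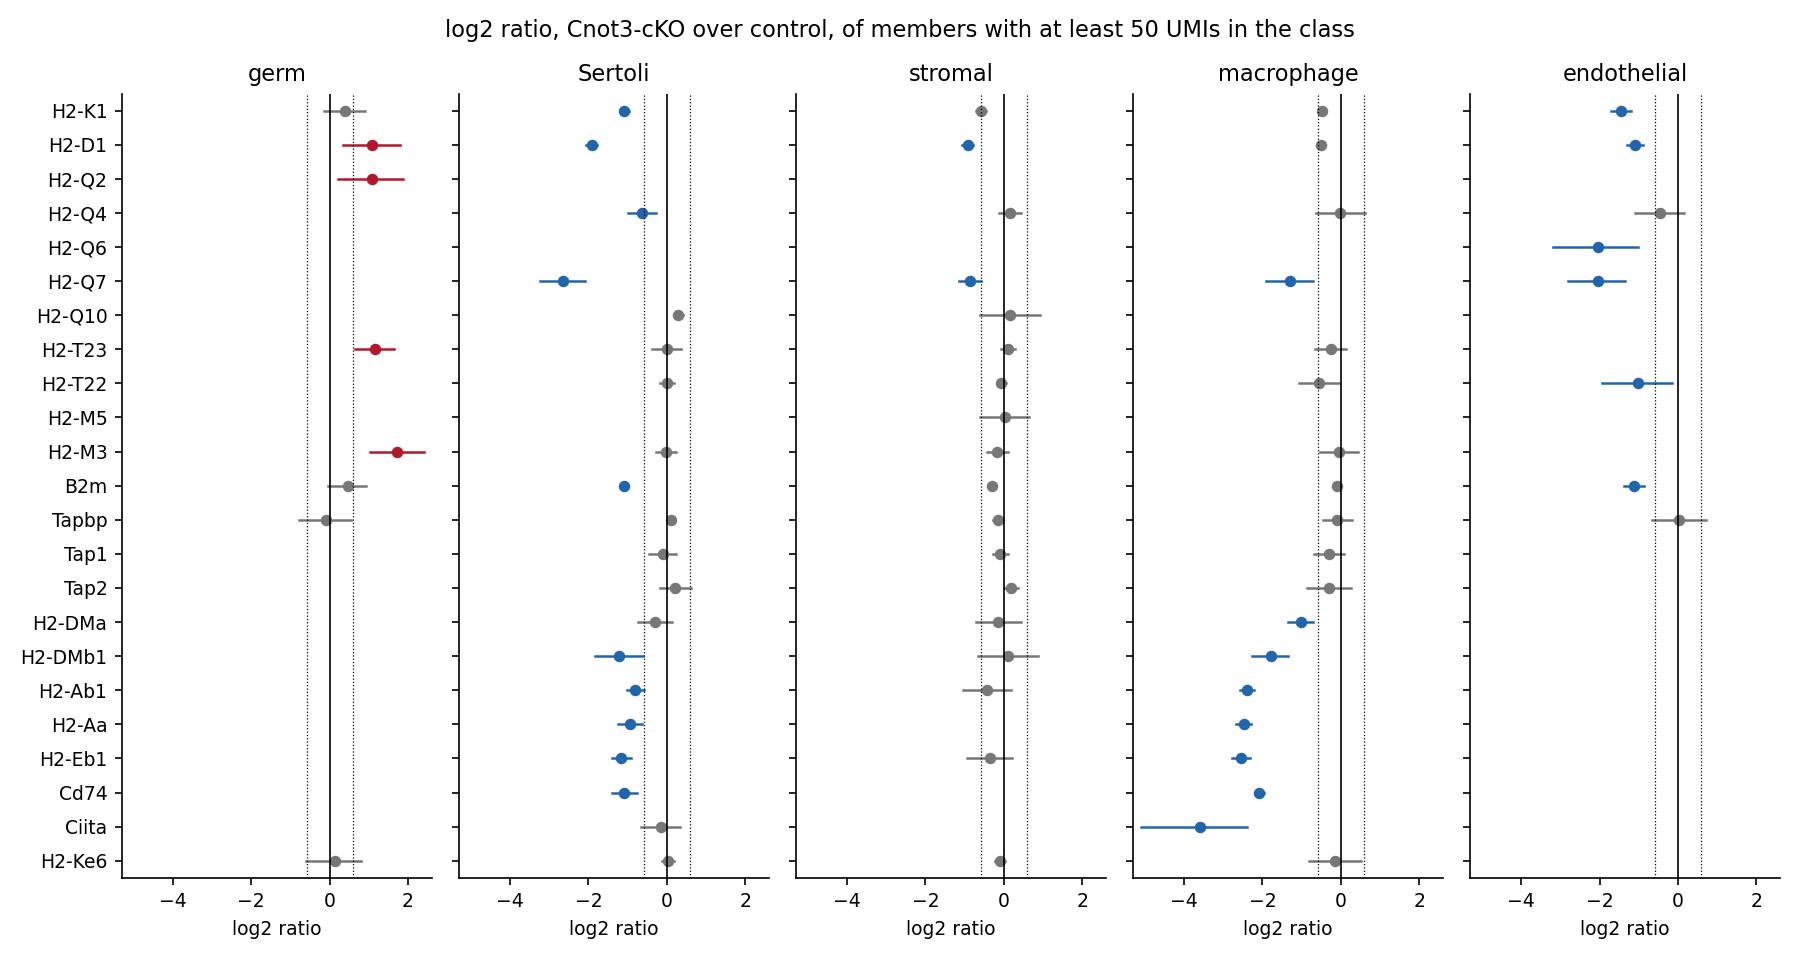
log2 ratio of Cnot3-cKO over control for every member with at least 50 UMIs in the class, with lines for 95% counting intervals, blue for at least 1.5-fold lower, red for at least 1.5-fold higher and grey for neither, and dotted lines at 1.5-fold. Blue points number 10 in Sertoli, 2 in stromal, 8 in macrophage-like and 6 in endothelial cells, and red points number 4, all in germ cells.

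Stromal cells had the same direction for the classical heavy chains at smaller size. H2-D1 was at 31.8 CPM [30.1, 33.5] in control cells and 16.8 [15.5, 18.0] in Cnot3-cKO (log2 ratio -0.92 [-1.06, -0.79]). H2-K1 was at 28.9 and 19.4 CPM, a log2 ratio of -0.57 [-0.71, -0.45] that lay just inside 1.5-fold, and H2-Q7 at 7.06 and 3.92 CPM (-0.85). B2m, at 184 and 149 CPM, had a log2 ratio of -0.31. H2-T22 (32.3 and 30.9 CPM), H2-T23 (10.8 and 11.7), Tap1 (11.9 and 11.2), Tap2 (11.2 and 12.7) and Tapbp (25.5 and 23.2) all lay within a log2 ratio of 0.2 of no change. Of the 18 members with at least 50 UMIs, 2 were at least 1.5-fold lower (H2-D1 and H2-Q7) and 0 higher, where 2.13% of all 13458 genes were lower and 2.08% higher. In the 4 larger clusters named stromal H2-D1 had log2 ratios from -1.31 to -0.67 and H2-K1 from -0.80 to -0.47. An unnamed cluster of 745 control and 756 Cnot3-cKO cells, led by Hsd3b1, Foxl2 and Oxtr and scoring highest on the stroma list without meeting the naming rule, was left out of the class. There H2-K1 was at 24.3 and 24.4 CPM (log2 ratio 0.00 [-0.24, 0.24]), H2-D1 at 21.4 and 12.3 CPM (-0.80 [-1.10, -0.50]) and B2m at 149 and 122 CPM (-0.29).

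Endothelial cells line the vessels and carry much class I. Their counts were small, 33 and 37 cells. H2-K1 was at 1042 CPM [952, 1138] in control cells and 379 [325, 441] in Cnot3-cKO, with 495 and 172 UMIs. H2-D1 was at 1301 and 609 CPM and B2m at 882 and 408 CPM, log2 ratios of -1.10 [-1.31, -0.89] and -1.11 [-1.37, -0.86]. H2-Q7 was at 192 CPM from 91 UMIs and at 46.3 CPM from 21 UMIs (log2 ratio -2.05), H2-Q6 at 90.5 and 22.1 CPM from 43 and 10 UMIs and H2-T22 at 75.8 and 37.5 CPM. Tapbp, at 82.1 and 83.8 CPM, did not share the difference. Tap1 (17 and 15 UMIs), Tap2 (22 and 13) and H2-T23 (17 and 13) were too rare there for a ratio. Of the 8 members with at least 50 UMIs, 6 were at least 1.5-fold lower (B2m, H2-K1, H2-D1, H2-Q6, H2-Q7 and H2-T22) and 0 higher, beside 6.32% lower and 6.85% higher of all 3198 genes.

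RNA of other cells differed between the endothelial groups. The summed Sertoli marker list stood at 2703 CPM in control endothelial cells and 609 in Cnot3-cKO ones, and the stroma list at 160 and 2330 CPM, while the endothelial list stood at 5939 and 6656. Among the 28 control and 35 Cnot3-cKO endothelial cells with at most 20 UMIs of the Sertoli and stroma lists per 10000, the summed H2-K1 and H2-D1 level was 2754 and 1074 CPM, a log2 ratio of -1.36 [-1.52, -1.19] beside -1.25 over all cells of the cluster.

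The macrophage-like cluster gave different answers for class I and class II, and its cells were of more than 1 kind. In the whole cluster H2-K1 was at 1650 and 1182 CPM and H2-D1 at 2238 and 1581 CPM, log2 ratios of -0.48 and -0.50. B2m was at 2002 and 1878 CPM, Tapbp at 130 and 122, Tap1 at 126 and 102, Tap2 at 62.4 and 50.6 and H2-T23 at 128 and 107. Class II genes differed far more, with H2-Ab1 at 1489 and 285 CPM, H2-Aa at 1426 and 256, H2-Eb1 at 1080 and 186 and Cd74 at 2904 and 687. Their log2 ratios ran from -2.54 (H2-Eb1) to -2.08 (Cd74). Ciita, the class II transactivator, had 62 UMIs in control cells and 6 in Cnot3-cKO (log2 ratio -3.59 [-5.09, -2.39]). Of the 19 members with at least 50 UMIs, 8 were at least 1.5-fold lower (Ciita, Cd74, H2-Aa, H2-Ab1, H2-Eb1, H2-DMa, H2-DMb1 and H2-Q7) and 0 higher, beside 6.85% lower and 9.41% higher of all 5301 genes.

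The class II UMIs sat in few cells, and in the control library most of those cells carried little macrophage RNA. The cells of the cluster separated by their macrophage marker UMIs into a group with at least 142 per 10000 and a group with at most 87.8 per 10000, and a line at 100, drawn after the values were seen, left 28 control and 47 Cnot3-cKO cells above it. The 22 control cells below it held 92.2% of the cluster's H2-Aa, H2-Ab1, H2-Eb1 and Cd74 UMIs. Among them 9 cells had at least 100 such UMIs, and all 9 also held a UMI of Xcr1, Batf3 or Flt3, genes known from dendritic cells that were named here after their values were seen. Xcr1 had 44 UMIs in the control cells below the line and 0 in the 14 Cnot3-cKO cells below it. T cell markers moved with the library too, at 1592 CPM in the control cells below the line, in 11 of which at least 5 such UMIs were counted, and at 345 CPM in the Cnot3-cKO ones. Of the Cnot3-cKO cells below the line, 2 had at least 100 class II and Cd74 UMIs, and 1 cell held UMIs of the B cell gene Cd79a, which had 14 UMIs there and 0 in the control cells of the cluster.

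In the cells rich in macrophage markers, class I was lower in Cnot3-cKO, and the class II value turned on 3 cells. The level summed over Cd74 and the class II genes, H2-DM and H2-O included, in those cells was 1226 CPM in control cells and 1311 in Cnot3-cKO (log2 ratio 0.10 [-0.05, 0.24]), where the whole cluster gave -2.19. Cd74 was at 593 and 569 CPM and H2-Aa at 196 and 188, while H2-Ab1 was at 117 and 234 and H2-Eb1 at 93.1 and 157 CPM. These levels still rested on few cells. In 10 of the 28 control and 20 of the 47 Cnot3-cKO cells no UMI of H2-Aa, H2-Ab1, H2-Eb1 or Cd74 was counted, the median was 1 UMI in each library, and the highest cells held 357 and 742. Without the 1 control and 2 Cnot3-cKO cells of at least 100 such UMIs, the summed class II and Cd74 level was 507 CPM in 27 control cells and 210.3 CPM in 45 Cnot3-cKO cells, a log2 ratio of -1.27 [-1.56, -0.98]. That value depends on a cut made on the class II UMIs themselves. Of the 137 and 88 UMIs of the 4 genes that remained, 44 and 33 lay in 1 cell each, which the interval does not cover. Both of the 2 Cnot3-cKO cells left out also held a UMI of Batf3, and the control cell left out held none. Batf3 was counted in 7 of the 47 Cnot3-cKO and 3 of the 28 control cells rich in macrophage markers. Xcr1 and Flt3 had 0 UMIs in those cells of either library. The classical class I log2 ratio was -0.74 with the 3 cells and -0.76 without them. H2-K1 was at 2174 and 1285 CPM and H2-D1 at 2900 and 1754 CPM in the same cells, log2 ratios of -0.76 [-0.88, -0.64] and -0.73 [-0.83, -0.62]. B2m was at 2878 and 2126 CPM (-0.44), H2-T22 at 95.1 and 50.3 CPM (-0.92) and Tapbp at 140 and 138 CPM (-0.02). Thus 4 of the 17 members with at least 50 UMIs were at least 1.5-fold lower (H2-K1, H2-D1, H2-Q7 and H2-T22) and 2 higher (H2-Ab1 and H2-Eb1), beside 5.42% lower and 11.0% higher of all 3896 genes.

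**Figure D4:**
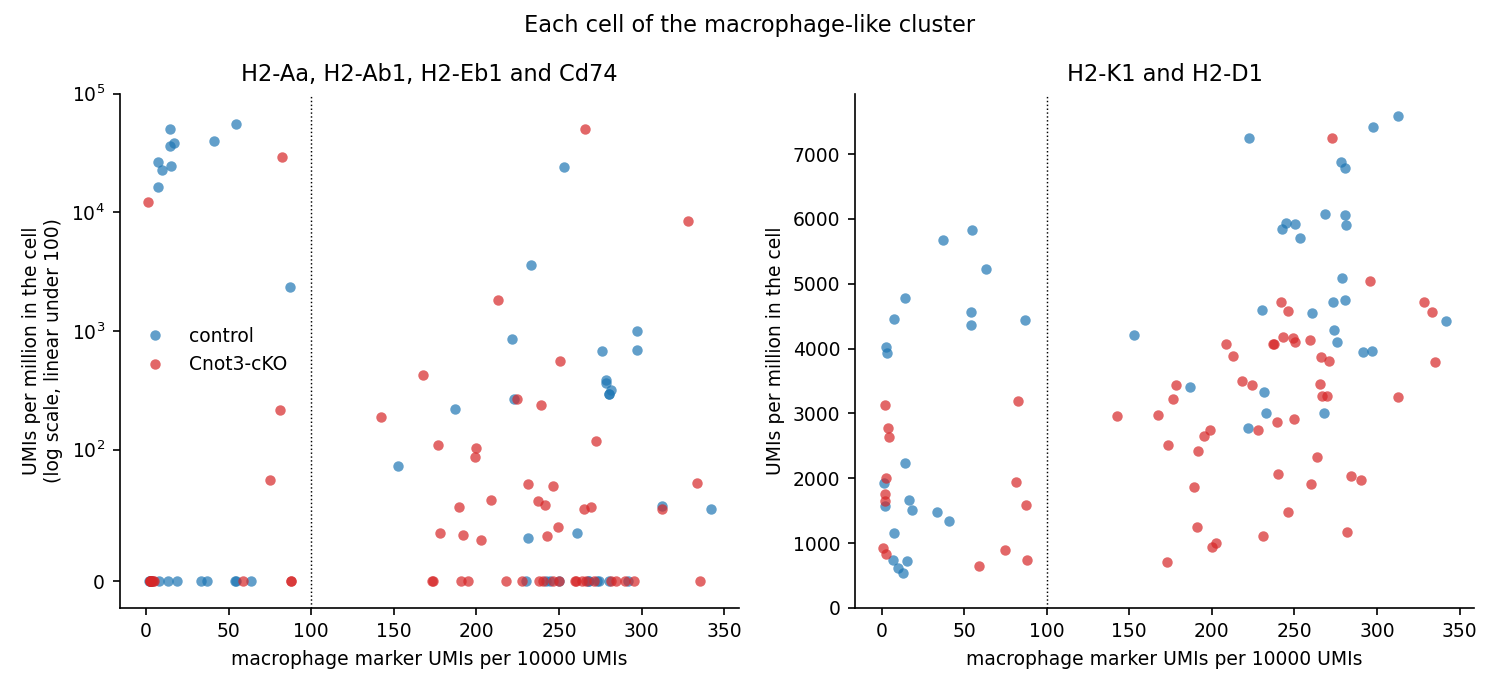
Each point is 1 cell of the macrophage-like cluster, with macrophage marker UMIs per 10000 on the horizontal axis and, on the vertical axes, CPM of H2-Aa, H2-Ab1, H2-Eb1 and Cd74 together (left, log scale that is linear under 100) and of H2-K1 and H2-D1 together (right). The control cells highest in class II lie left of the dotted line at 100, where 9 control cells and 2 Cnot3-cKO cells had at least 100 such UMIs, and right of it class I stood at 5074 CPM in control cells and 3039 in Cnot3-cKO cells.

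Class II RNA was also counted in Sertoli cells, and it was lower in the Cnot3-cKO library. H2-Ab1 was at 16.2 CPM [14.7, 17.8] in control cells and 9.27 [8.22, 10.4] in Cnot3-cKO, H2-Eb1 at 16.6 and 7.44, H2-Aa at 9.28 and 4.82, and Cd74 at 8.71 and 4.12. Log2 ratios of these 4 genes ran from -1.16 to -0.80. Ciita had 69 and 71 UMIs, or 2.62 and 2.36 CPM, a log2 ratio of -0.15 [-0.65, 0.35], and H2-DMa was at 3.65 and 2.96 CPM. In stromal cells, H2-Ab1 was at 1.33 and 0.986 CPM, and in barcodes of at most 100 UMIs at 9.57 and 6.06 CPM. Those barcodes, which hold free RNA, had H2-Eb1 at 9.57 and 6.06 CPM, H2-Aa at 7.68 and 3.58 and Cd74 at 11.5 and 5.93. All 4 genes were thus lower in the free RNA of the Cnot3-cKO library too. Cd74 stood higher in free RNA than in Sertoli cells in both libraries.

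Fewer Sertoli cells held class II RNA in Cnot3-cKO, while the shares of cells with at least 5 UMIs had overlapping intervals. After thinning to 7500 UMIs, a UMI of H2-Aa, H2-Ab1, H2-Eb1 or Cd74 was found in 23.1% of control Sertoli cells [21.0, 25.2] and in 8.41% of Cnot3-cKO ones [7.22, 9.72]. Stromal cells, at median depths of 13524 and 12608 UMIs, gave 1.64% and 1.85%, and germ cells gave 2.07% and 1.41%. At least 5 UMIs were found in 1.31% of control Sertoli cells [0.81, 1.99] and in 1.02% of Cnot3-cKO ones [0.62, 1.57], intervals that overlap. The richest 1% of Sertoli cells accordingly held 14.4% of the H2-Ab1 UMIs in control cells and 49.1% in Cnot3-cKO, and 28.8% and 71.8% of those of Cd74. The highest cell had 6 H2-Ab1 UMIs in control and 15 in Cnot3-cKO.

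Other cells as a source of these UMIs were followed mainly through the macrophage marker list, which does not cover the control cells richest in class II. The 5 cells of the control macrophage-like cluster with the most class II RNA had 1502 CPM of that list, where the other 45 had 17601, and the part of RNA from such cells was not tested. The list stood at 4.24 CPM [3.03, 5.78] in the 557 control Sertoli cells with a UMI of the 4 genes and at 5.28 CPM [4.24, 6.49] in the 1052 without one, and at 5.40 and 5.92 CPM in the Cnot3-cKO library. Free RNA, estimated from stroma markers, was put at 39.9% of the UMIs in control Sertoli cells and 31.0% in Cnot3-cKO ones. Stromal genes were also read in 1 of the Sertoli clusters, so this estimate is uncertain. Cd74 made up 17.2% [15.2, 19.3] of the UMIs of the 4 genes in control Sertoli cells and 16.1% in Cnot3-cKO ones. In the macrophage-like cluster, which held more than 1 kind of cell, it made up 42.1% [40.9, 43.3] and 48.6%. Barcodes of at most 100 UMIs held 79 Cd74, 66 H2-Ab1, 66 H2-Eb1 and 53 H2-Aa UMIs in the control library. In Cnot3-cKO they held 43, 44, 44 and 26. What these shares mean for the source of the Sertoli UMIs was not tested. Without any cell holding a macrophage marker UMI, the summed level in Sertoli cells was 52.2 CPM in control cells and 24.5 in Cnot3-cKO (log2 ratio -1.09 [-1.22, -0.95]). With cells holding an endothelial marker UMI left out instead, it was 51.2 and 24.9 CPM (log2 ratio -1.04 [-1.19, -0.89]).

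The largest cluster of Sertoli cells had the lowest ratio for summed class II and Cd74, at 66.6 and 28.4 CPM (log2 ratio -1.23), and the other 3 clusters had log2 ratios from -0.60 to -0.36. A small cluster that could not be named, of 10 control and 11 Cnot3-cKO cells led by Rmst, Pax8 and Kdr, had a higher class II level than any named class but the macrophage-like cluster. Its summed class II and Cd74 level was 938 CPM in control cells and 637 in Cnot3-cKO, UMIs of H2-Aa, H2-Ab1, H2-Eb1 or Cd74 were counted in 9 of its 10 and 7 of its 11 cells, and its macrophage marker UMIs numbered 2 and 1. In endothelial cells, class II was near the limit of counting, with 21 Cd74 UMIs in control cells and 0 in Cnot3-cKO and 10 and 1 of H2-Ab1.

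Germ cells had the lowest H2-K1, H2-D1 and B2m levels of the control library, and they were the only whole class with members at least 1.5-fold higher in Cnot3-cKO. H2-M3 had 46 UMIs in control cells and 32 in Cnot3-cKO, or 6.49 and 21.5 CPM (log2 ratio 1.73 [1.03, 2.41]). H2-T23 was at 15.4 and 34.2 CPM (1.15), H2-D1 at 7.90 and 16.8 CPM (1.09 [0.34, 1.79]) and H2-Q2 at 6.07 and 12.8 CPM (1.07 [0.21, 1.88]). H2-K1 (20.5 and 26.9 CPM), B2m (24.0 and 32.9), Tapbp (17.9 and 16.8) and H2-Ke6 (13.5 and 14.8) had intervals of the ratio that held 0. Of the 8 members with at least 50 UMIs, 4 were thus at least 1.5-fold higher and 0 lower, beside 8.07% higher and 6.28% lower of all 9786 genes. Class II was barely counted, with 7 Cd74 UMIs in control cells and 0 in Cnot3-cKO.

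The germ cell values rested on few UMIs. Of the 25 H2-D1 UMIs in the 71 Cnot3-cKO germ cells, 68.0% lay in 5 cells. With Scrublet doublets left out, H2-D1 was at 8.04 and 13.8 CPM, a log2 ratio of 0.77 [-0.06, 1.55] that held 0. The class also pooled germ cells of more than 1 kind. At Leiden resolution 1, a cluster with Sycp1 and Stra8 among its leading genes held 125 control and 26 Cnot3-cKO cells. Another, led by Egr4, held 116 and 45. The part of this mix in the ratios was not tested. The Sertoli marker list stood at 348 CPM in control cells and 571 CPM in Cnot3-cKO germ cells. When cells with up to 20% mitochondrial UMIs and without bounds on depth were kept, germ cells numbered 1334 and 561, the ratios of H2-M3, H2-T23 and H2-D1 were smaller, and that of H2-Q2 changed sign. H2-M3 was then at 10.5 and 16.7 CPM (log2 ratio 0.67 [0.49, 0.85]), H2-D1 at 10.7 and 15.8 (0.56), H2-K1 at 13.2 and 18.5 (0.49) and H2-T23 at 14.8 and 19.9 (0.43), and H2-Q2 turned to 11.6 and 8.47 CPM (-0.45 [-0.68, -0.23]). In that larger set Tap2 was at 0.952 and 1.96 CPM and Tapbp at 23.3 and 18.6 CPM. Its median germ cell depths, 42275.5 and 46104 UMIs, lay above the upper bounds of the study's filter here, 41983 and 38066 UMIs. The reported germ class, with medians of 31950 and 20265 UMIs, thus left out the deepest germ cells.

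The rest of the H2 region did not share the lower levels in Sertoli and stromal cells. Of the 162 genes that lie between the outermost H2 genes and are no members, 75 reached 50 UMIs in Sertoli cells, and 1 of them was at least 1.5-fold lower and 0 higher, with a median log2 ratio of 0.02. The 1 was Psmb9, an immunoproteasome subunit, at 4.75 and 2.92 CPM. In stromal cells 0 of 81 such genes lay past 1.5-fold in either direction, and the farthest were Tcf19 (-0.52) and Ppp1r10 (0.39). In endothelial cells 2 of 17 were lower (Psmb8, another immunoproteasome subunit, at 196 and 99.3 CPM, and Brd2) and 2 higher (Egfl8 and Bag6). In germ cells 7 of 57 were higher, led by Flot1 (1.19), Ier3 (1.12) and Rpp21 (0.99), and 1 was lower (Nrm). In the macrophage-like cluster 5 of 39 were higher, led by Ier3 at 7.67 and 73.1 CPM, and 2 lower (Psmb9 and Ppp1r11). Of all genes with as many UMIs, 1.59% were lower and 1.5% higher in Sertoli cells, and 2.13% and 2.08% in stromal cells. The shares were 6.32% lower and 6.85% higher in endothelial cells, 6.28% and 8.07% in germ cells, and 6.85% and 9.41% in the macrophage-like cluster.

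**Figure D5:**
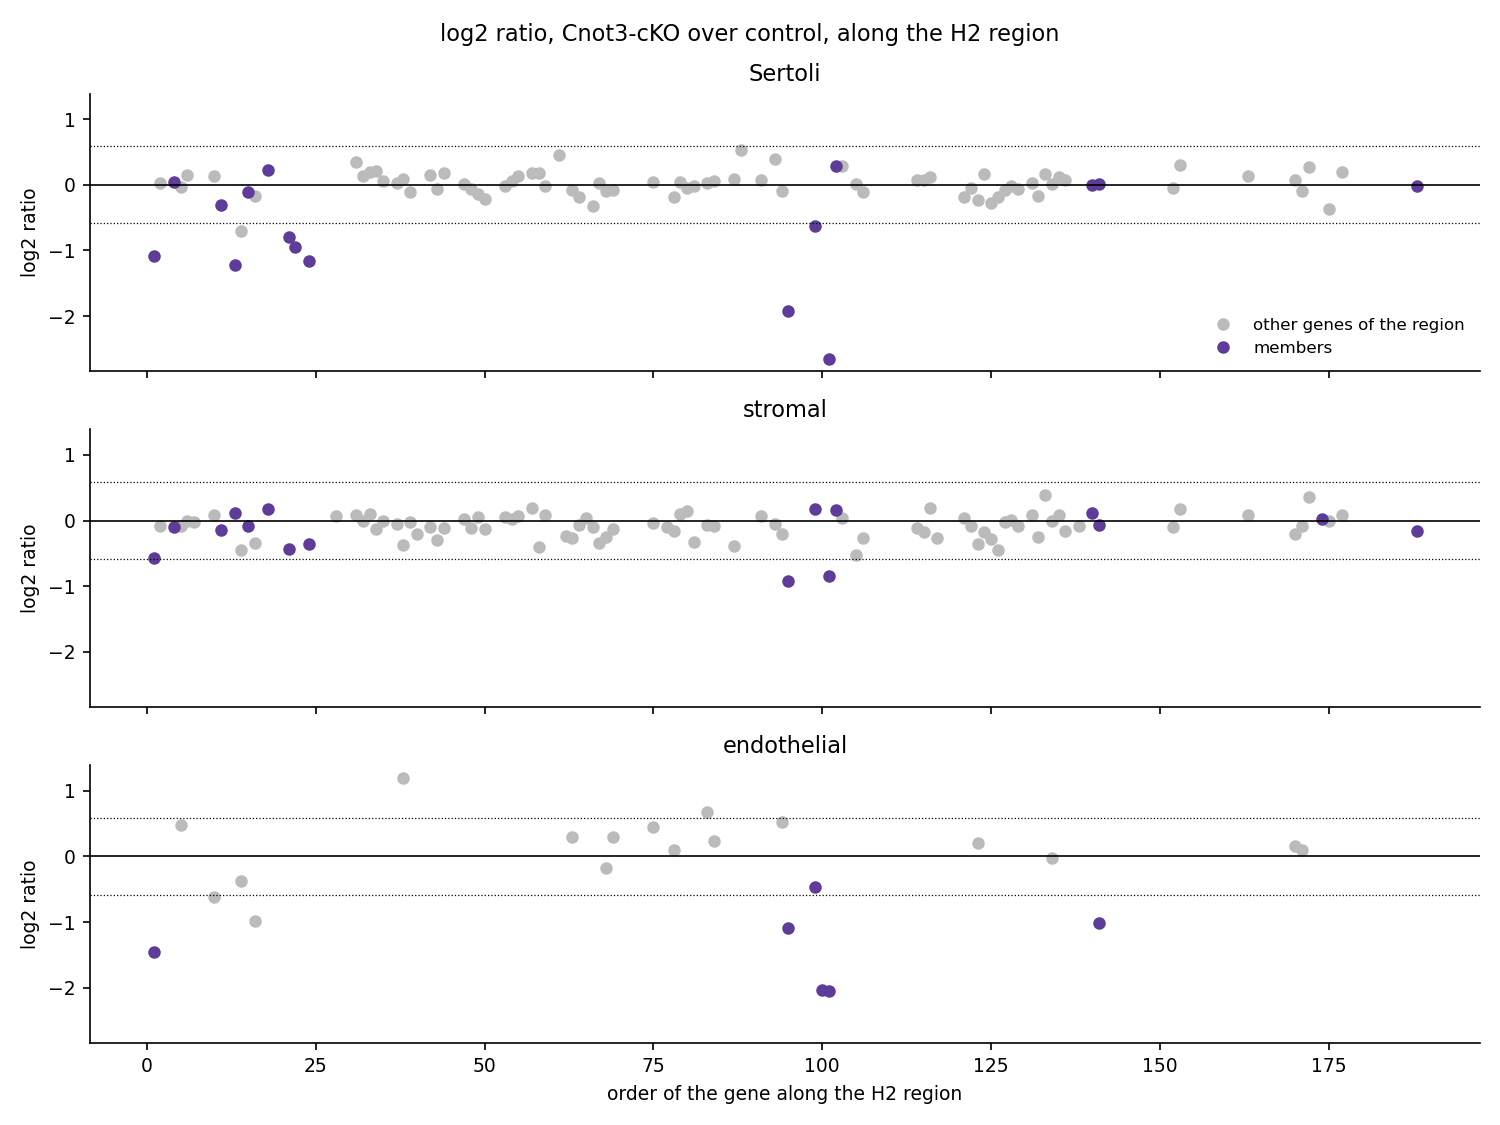
log2 ratio, Cnot3-cKO to control, of genes with at least 50 UMIs in Sertoli, stromal and endothelial cells, set in their order along the H2 region, with members in purple, other genes in grey and dotted lines at 1.5-fold. In Sertoli cells 1 of the 75 grey points lies below the lower line, while purple points lie down to -2.65 beside grey points near 0.

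Genes that work with the members outside the H2 symbols were followed in lists of regulators and peptide supply, class I-like molecules and interferon-induced genes, 57 genes in all. In Sertoli cells 1 of 19 class I regulators and suppliers was at least 1.5-fold lower (Psmb9) and 0 higher, with a median log2 ratio of 0.07. Irf1, an interferon-regulated transcription factor, was at 8.71 and 9.57 CPM there and was named for its role after its values were seen. Nlrc5, the class I transactivator, was too rare to compare, with 4 and 14 UMIs. Of 13 interferon-induced genes, 1 was lower (Isg15, 1.22 and 0.764 CPM) and 0 higher, and the farthest in the other direction were Gbp2 (log2 ratio 0.58), Irf7 (0.48) and Stat2 (0.47). Of 9 class II regulators and suppliers and of 4 class I-like molecules, 0 lay past 1.5-fold. Beside these list counts, 1.59% of all genes were lower and 1.5% higher in Sertoli cells.

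In stromal cells the same lists gave 0 of 19 class I regulators past 1.5-fold and 1 of 15 interferon-induced genes lower (Isg15, log2 ratio -1.05), and Cd40 was lower among 10 class II regulators (-0.67). In endothelial cells 3 of 6 interferon-induced genes were lower (Isg15, Xaf1 and Gbp7, log2 ratios of -1.15, -1.13 and -0.97) and 0 higher, and among 14 class I regulators Psmb8 was lower and Ifngr1 and Irf2 were higher. There 1 of 3 class II regulators and 1 of 2 class I-like molecules were also higher, and 0 of either list were lower. In the macrophage-like cluster 3 of 13 interferon-induced genes were higher (Gbp2, Ifitm3 and Igtp) and 0 lower, while 2 of 8 class II regulators were lower (Creb1 and Nfyb, log2 ratios of -1.07 and -1.06) and 0 higher, and 1 of 18 class I regulators was lower (Psmb9, -0.96). In germ cells 1 of 16 class I regulators was lower (Ifnar2, log2 ratio -0.69 [-2.21, 0.54] from 46 and 6 UMIs) and 3 were higher, among them Tapbpl at 5.64 and 10.7 CPM and Psmb10 at 89.6 and 144 CPM, and Ifi27 was the farthest of the interferon-induced genes (33.9 and 65.8 CPM). Of 3 interferon-induced genes in germ cells 2 were higher and 0 lower, and of 9 class II regulators 1 was higher and 1 lower. Over all genes, 2.13% were lower and 2.08% higher in stromal cells, and 6.32% and 6.85% in endothelial cells. These shares were 6.85% and 9.41% in the macrophage-like cluster and 6.28% and 8.07% in germ cells.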

How the data were processed

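The authors deposited unnormalised UMI counts for each gene in each barcode, made with Cell Ranger (version 3.0.1 per the labels) on mm10 with the Ensembl 93 annotation. How reads shared by similar H2 genes or differing alleles were treated is not given in the sources used here, nor is the strain, and their effect was not tested. Both samples of a genotype share 1 matrix. A barcode counted as a cell from 10% of the UMIs of the top barcodes, as early Cell Ranger versions do, with 3000 expected cells. The filters of the study followed, at most 10% mitochondrial UMIs and UMIs and genes within 2 SD of the mean. Counts normalised to 10000 were clustered without the members (scanpy 1.11.5, 2500 variable genes, 30 principal components, 15 neighbours, Leiden resolution 0.5). Clusters were named from marker lists, with globins left out of naming after the clusters were seen. No doublet caller was used in the values reported, and Scrublet served as an alternative.

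UMIs were summed per class and library and given as CPM (UMIs per 1000000) with exact Poisson intervals. Ratios have exact conditional intervals and shares exact Clopper-Pearson intervals at 95%, and the steps were tested on simulated data. With 1 library per genotype no p-value was computed. A ratio was given from 50 UMIs over both libraries, and 1.5-fold was the size used for counting genes. Positions come from GENCODE M21 and promoters from RefSeq (GRCm38.p6), 250 bases before to 50 after each start. The members, lists, the rule for named genes and the tests were chosen with earlier results of these data known. That rule took every member over the UMI minimum, and of neighbours and lists up to 3 in each direction per class. The result of 1 listed gene is not reported here.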

Additional observations from a re-analysis of the deposited data

How the results depend on the processing

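For 23 results, 213 values were recomputed under 18 alternatives. Of these, 185 stayed within the counting interval of the reported value or, for counts of members, within 1.5 times. Another 26 moved further and 2 changed sign. The 2 were macrophage values of class I assembly and of class II, and the sign change of H2-Q2 in germ cells was not in this count. Keeping cells of up to 20% mitochondrial UMIs and of any depth, 2 choices at once, gave log2 ratios in the macrophage-like cluster of -0.28 for classical class I, 0.086 for class I assembly (reported -0.11) and -1.86 for class II with Cd74, and -1.08 for endothelial class I. Leaving out Scrublet doublets gave -1.99 for macrophage class II. Classes from marker UMIs gave -0.60 for macrophage class I, -1.97 for its class II and 6 lower members in stromal cells. Subtracting free RNA gave -2.04 and -0.75 for Sertoli class I and assembly, with 1 higher member, Tap2. It also gave -0.30 for stromal assembly, and -0.72, -0.33 and -2.42 for macrophage class I, assembly and class II. Endothelial class I and assembly gave -2.09 and -1.70 in that setting. Free RNA was estimated at 57.3% and 8.08% in control and Cnot3-cKO endothelial cells, 39.9% and 31.0% in Sertoli and 28.4% and 15.4% in macrophage-like cells. The endothelial estimate came from Sertoli markers, at 2703 and 609 CPM in those cells. The stroma list ran the other way there, at 160 and 2330 CPM, so the estimate and the 2 endothelial ratios after subtraction are uncertain. The mean per-cell CPM gave -1.93 for macrophage class II. Cells rich in macrophage markers, an alternative added after seeing the data, gave -0.74, -0.41 and 0.096 for macrophage class I, assembly and class II, and -0.76, -0.40 and -1.27 without the 3 of them rich in class II. A minimum of 20 UMIs gave 1 lower germ and 1 higher stromal member, and a minimum of 100 gave 1 higher germ member. Unthinned, 50.8% of Cnot3-cKO macrophage-like cells held a class II or Cd74 UMI, against 34.4%. Other causes of these moves were not tested. Leaving out replicates was not run. No paired analysis was possible because both samples of each genotype are merged in 1 matrix.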
